A study of Mus musculus with 6 samples.

Results

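U17 (Snora73a in mouse) and E2 (Snora62) are box H/ACA small nucleolar RNAs (snoRNAs) that act in the cleavage of precursor ribosomal RNA (pre-rRNA). They were taken from the panel by the RefSeq transcript of each, NR_028512.1 for Snora73a and NR_002902.2 for Snora62, which gave 2 of the 67 snoRNA probes with values. The panel was a custom NanoString nCounter assay, in which colour-coded probes are counted on unamplified RNA, and it held 72 snoRNA probes, 5 of them without a value in any sample. Total RNA came from C2C12 cells, an immortalised line of mouse muscle precursor cells whose members fuse to form myotubes. Undifferentiated control myoblasts gave 3 samples, and C2C12 cells differentiated into myotubes for 7 days gave 3 samples. No genotype or drug treatment beyond differentiation was given for either group, and the cell type field reads myoblasts for all 6 samples, so the groups rest on the treatment label and the sample titles. A differentiated C2C12 culture can still hold unfused cells, and as a cell line both groups derive from a single source. Whether a group's samples were separate cultures is not stated, so each p-value reflects only how far these samples spread, and that spread may be technical.

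Box H/ACA snoRNAs fold into hairpins that bind dyskerin and its partner proteins, and most of them direct the change of chosen uridines of ribosomal RNA into pseudouridine. U17 is an exception: its yeast counterpart, snR30, is essential and is required for the cleavages that release 18S rRNA rather than for modification. In Xenopus oocytes, depletion of U17 (also called E1), E2 or E3 disturbed pre-rRNA processing. Like most vertebrate snoRNAs, both are cut from introns of host transcripts, so that their output depends on the transcription of the host, splicing and the stability of the mature particle. Mature snoRNA levels, which the probes read, do not separate these steps.

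In the RefSeq annotation of GRCm38.p6, Snora73a (205 bases) lies within the long non-coding gene Snhg3, beside its copy Snora73b (205 bases), and Snora62 (130 bases) lies within Rpsa, which encodes a protein of the small ribosomal subunit. Snora73b had no measured probe under its own symbol, and whether the Snora73a probe also reads Snora73b was not tested, so the value is uncertain between these copies. No snoRNA coordinates are printed, since the sources used here do not name the build on which the probes were designed. The 100 bases before the annotated start of each host gene are shown because transcription of the host precedes the release of either snoRNA. Capitals mark the longest unbroken run of C and T on the shown strand, or the first of them where several are equally long, and both sequences come from RefSeq, build GRCm38.p6.
Snhg3, host of Snora73a, chr4:132353687-132353786, minus strand: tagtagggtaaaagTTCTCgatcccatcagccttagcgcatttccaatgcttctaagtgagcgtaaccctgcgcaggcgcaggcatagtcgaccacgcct
Rpsa, host of Snora62, chr9:120127666-120127765, plus strand: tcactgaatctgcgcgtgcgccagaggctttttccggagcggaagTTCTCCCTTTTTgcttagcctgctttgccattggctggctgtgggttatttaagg
The longest run was 5 bases before Snhg3, where 3 runs had this length, and 12 bases before Rpsa, where 1 did. A run at least as long stood in 87.3% and 10.1%, respectively, of 32851 promoter windows of the same length. Neither CACGTG, the letters bound by Myc with its partner, nor CAGCTG, an E-box letter string bound by MyoD, was found in the 250 bases before either start (both strings read the same on both strands), against 6.02% and 13.0% of all promoters. These letter matches are descriptions of the windows, and host transcripts were not measured.

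The deposited values were normalized counts, which in every sample were whole multiples of a single step. The step was found over all values of a sample, and a check limited to low values did not recover it, so the counts, counting errors and intervals built on it are inferred. The implied counts summed to between 1097844 (myoblast sample 1) and 1627062 (myotube sample 2) over the panel. At this depth the counting error of a log2 value was at most 0.0040 for Snora73a and 0.020 for Snora62, below the spread between replicates. The samples of a state were unevenly spaced. Over all probes the SD of the log2 difference was 0.080 between myotube samples 1 and 2, but myotube sample 3 differed from them by 0.353 and 0.371. Among myoblasts it was 0.210 between samples 2 and 3, from which sample 1 differed by 0.492 and 0.359. The panel held no measured probe under a symbol for any of the 6 listed myotube markers, 5 myoblast and cycling markers or 3 fibroblast markers, so the labelled states could not be checked against markers.

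Snora73a was very abundant in both states and fell in myotubes. In myoblast samples 1 to 3 it stood at 198907, 212112 and 213171 normalized counts. In myotube samples 1 to 3 it stood at 143211, 148275 and 177999. The groups did not overlap, and myotube sample 3 lay closest to the myoblasts. The mean went from 208063 ± 7947 to 156495 ± 18794 (SD, n = 3 each). The log2 change was -0.42 ± 0.13 (SE), a 1.34-fold fall. Its 95% interval was -0.71 to -0.12 (limma over all 67 probes on log2(value + 1), Benjamini-Hochberg adjusted p = 0.024). Of all probes 37, or 55.2%, passed at an adjusted p of 0.05. These were 13 lower probes, 19.4% of the panel, and 24 higher ones, or 35.8%. The falls were 20 of 42 calls with equal panel totals, 17 of 37 under quantile normalization and 23 of 41 with equal totals of the panel without its 3 highest probes. Groups without overlap and lower in myotubes made up 23.9% of the probes, so separation of this kind was common on the panel. RNA from whole cultures cannot tell fewer cells of a type from less of the RNA per cell.

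The call for Snora73a depended on 4 of the samples. It ended without myoblast sample 2 or 3 (adjusted p = 0.070 and 0.077), without myotube sample 1 or 2 (adjusted p = 0.115 and 0.111), and with myotube samples 1 and 2 averaged into 1 value (adjusted p = 0.115). A limma fit with a block for replicate number also ended the call (adjusted p = 0.108). That fit gave Snora73a and Snora62 the same SE (0.23), pooled over the panel. Its p-value therefore does not measure the spread of Snora73a itself. Without myotube sample 3 the log2 change was -0.51 (adjusted p = 0.0058). The direction was downward in all of these fits. The size also moved with the scale. The log2 change was -0.59 with equal panel totals (adjusted p = 0.0051) and -0.70 with equal totals of the panel without its 3 highest probes (adjusted p = 0.0037). Quantile normalization gave -0.22 (adjusted p = 0.0021), where the 2 highest probes can move only between 2 fixed rank values. Snora73a then had no spread within a state, so that p-value does not measure the spread of its replicates. Myotube sample 3 stood 0.29 above the mean of myotube samples 1 and 2 for Snora73a on the log2 scale, the second-highest such difference among the 67 probes, whose median was -0.15.

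Snora62, the E2 RNA, was measured at a far lower normalized count, and its difference between the states did not pass the test. In myoblast samples 1 to 3 it stood at 6668, 8733 and 9089 normalized counts. In myotube samples 1 to 3 it stood at 7007, 7079 and 6290. Myoblast samples 2 and 3 lay above every myotube sample, while myoblast sample 1 lay below 2 of them, so the groups overlapped. The means were 8163 ± 1307 and 6792 ± 436 (SD, n = 3 each). The log2 change was -0.25 ± 0.15 (SE), and its 95% interval of -0.61 to 0.10 excluded a 2-fold fall or rise but not a 1.5-fold fall (limma, adjusted p = 0.186).

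The result for Snora62 depended on myoblast sample 1 and on the scale. Without that sample the log2 change was -0.39 (adjusted p = 0.014). With equal panel totals it was -0.43 (adjusted p = 0.015), a scale on which 62.7% of all probes passed and 29.9% passed downward. Quantile normalization gave -0.42 (adjusted p = 0.049). Equal totals of the panel without its 3 highest probes gave -0.54 (adjusted p = 0.0059). With sample medians subtracted it was -0.31 and did not pass (adjusted p = 0.166). That fit gave both members the same SE (0.20), pooled over the panel, so its p-value does not measure the spread of Snora62 itself. Myoblast sample 1 had the lowest implied total of the 6 samples and the highest step (1.31, against 1.01 to 1.11 in the others). In it Snora62 stood 0.42 below the mean of myoblast samples 2 and 3 (log2), against a median of -0.12 over all probes and -0.10 for Snora73a. The part of depth or scaling in this was not tested.

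**Figure D1:**
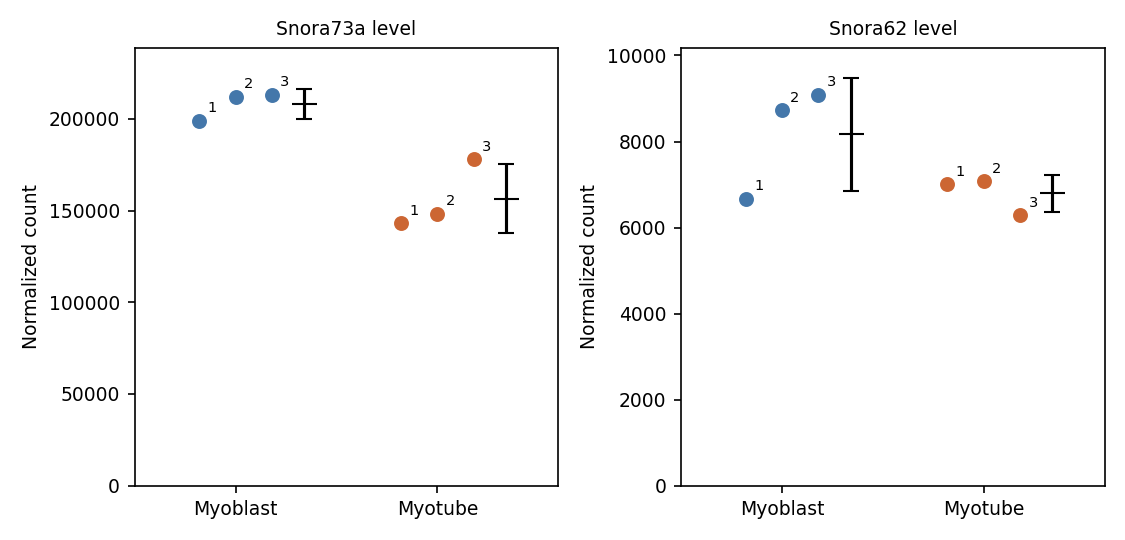
Level of Snora73a (left) and Snora62 (right) in each sample, in normalized counts on axes that start at 0; points are samples with their replicate number, and the black bar is the mean with its SD (n = 3). Snora73a stands lower in all 3 myotube samples than in any myoblast sample, whereas the myoblast sample 1 value of Snora62 (6668) lies among the myotube values.

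The share of the panel does not depend on the scaling factor of a sample. Snora73a took 13.9%, 13.4% and 13.4% of the summed normalized count in myoblast samples 1 to 3. It took 8.17%, 8.46% and 10.5% in the myotube samples, in the same order. All 3 myotube shares lay below all 3 myoblast shares. The mean share of the myoblasts was 13.6% ± 0.267 and that of the myotubes 9.05% ± 1.28 (SD, n = 3 each), a difference of -4.51 percentage points (exact two-sided permutation p = 0.1, the smallest that 3 samples against 3 allow). The binomial interval of each share (95%, Wilson) spanned little, from 8.13% to 8.21% in myotube sample 1 for example, and covers counting error only.

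Snora62 took 0.465%, 0.551% and 0.572% in myoblast samples 1 to 3. Its myotube shares were 0.400%, 0.404% and 0.371%. On this scale its groups did not overlap either, since the lowest myoblast share lay above the highest myotube share. The mean share was 0.529% ± 0.0569 against 0.392% ± 0.0177 (SD, n = 3 each), a difference of -0.138 percentage points (exact two-sided permutation p = 0.1, the smallest possible). Of all 67 probes, 28.4% had a share that was lower in myotubes without overlap.

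The share is set by the other probes as well. The summed normalized count of the panel without Snora73a averaged 1328048 ± 79850 over the myoblast samples and 1576140 ± 52957 over the myotube samples (SD, n = 3 each), 1.19-fold higher (exact two-sided permutation p = 0.1, the smallest possible). Snora73a itself fell over the same comparison. On the deposited scale both a lower numerator and a higher denominator therefore enter its lower share. This split, unlike the share, depends on the scaling factor of each sample. The relative difference of the mean share was -33.2% for Snora73a and -26.0% for Snora62.

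**Figure D2:**
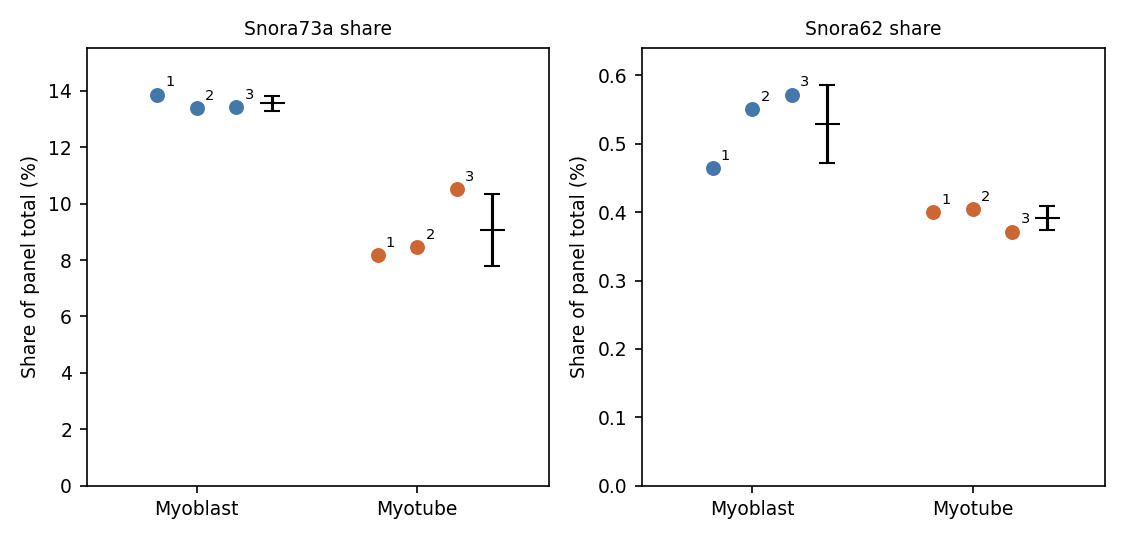
Share of the summed normalized count of the panel taken by Snora73a (left) and Snora62 (right) in each sample, in percent on axes that start at 0; points are samples with their replicate number, and the black bar is the mean with its SD (n = 3). For both snoRNAs every myotube sample lies below every myoblast sample, at 8.17% to 10.5% against 13.4% to 13.9% for Snora73a.

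Set against the median probe of the same sample, the members gave another picture. Snora73a stood at 18.3, 19.4 and 16.4 times the panel median in myoblast samples 1 to 3. The myotube samples followed at 11.3, 11.4 and 16.8 times. Myotube sample 3 thus fell inside the myoblast range, and the other myotube samples lay below it. The log2 ratio to the median averaged 4.17 ± 0.12 for the myoblasts and 3.69 ± 0.33 for the myotubes (SD, n = 3 each), a difference of -0.47 ± 0.20 (SE; exact two-sided permutation p = 0.2). In limma with sample medians subtracted, the same difference passed (adjusted p = 0.034), on a scale where 41 of 67 probes passed. The SE of that fit, 0.20 for both members, was pooled over the panel. Its p-value therefore does not measure the spread of Snora73a itself.

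Snora62 stood at 0.613, 0.799 and 0.698 times the panel median in myoblast samples 1 to 3, and the myotube samples at 0.552, 0.544 and 0.595 times. Here all myotube samples lay below all myoblast samples, although the gap between the nearest of them was small. The log2 ratio was -0.52 ± 0.19 and -0.83 ± 0.07 (SD, n = 3 each), a difference of -0.31 ± 0.12 (SE; exact two-sided permutation p = 0.1, the smallest possible). A ratio to the median that was lower in myotubes without overlap was found for 22.4% of the probes. With the median taken over the 33 probes with a symbol alone, the differences were larger, at -0.90 for Snora73a and -0.74 for Snora62.

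The ratio between the members asks whether they changed unequally, and is free of the scaling factor. The normalized count of Snora73a was 29.8, 24.3 and 23.5 times that of Snora62 in myoblast samples 1 to 3. The multiples in the myotube samples were 20.4, 20.9 and 28.3. The groups overlapped, since myotube sample 3 lay above 2 of the myoblast samples. The log2 ratio averaged 4.68 ± 0.19 for the myoblasts and 4.52 ± 0.26 for the myotubes (SD, n = 3 each), and the difference of -0.16 ± 0.19 (SE) did not exceed the spread (exact two-sided permutation p = 0.5). Without myotube sample 3 the difference was -0.31, without myoblast sample 1 it was -0.06, and under quantile normalization it turned to 0.20. In that last setting the change of Snora73a is fixed by its rank in each state. A difference between the changes of U17 and E2 was thus not resolved. Probes differ in how well they hybridise, so the ratio is of probe counts and not of molecules.

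**Figure D3:**
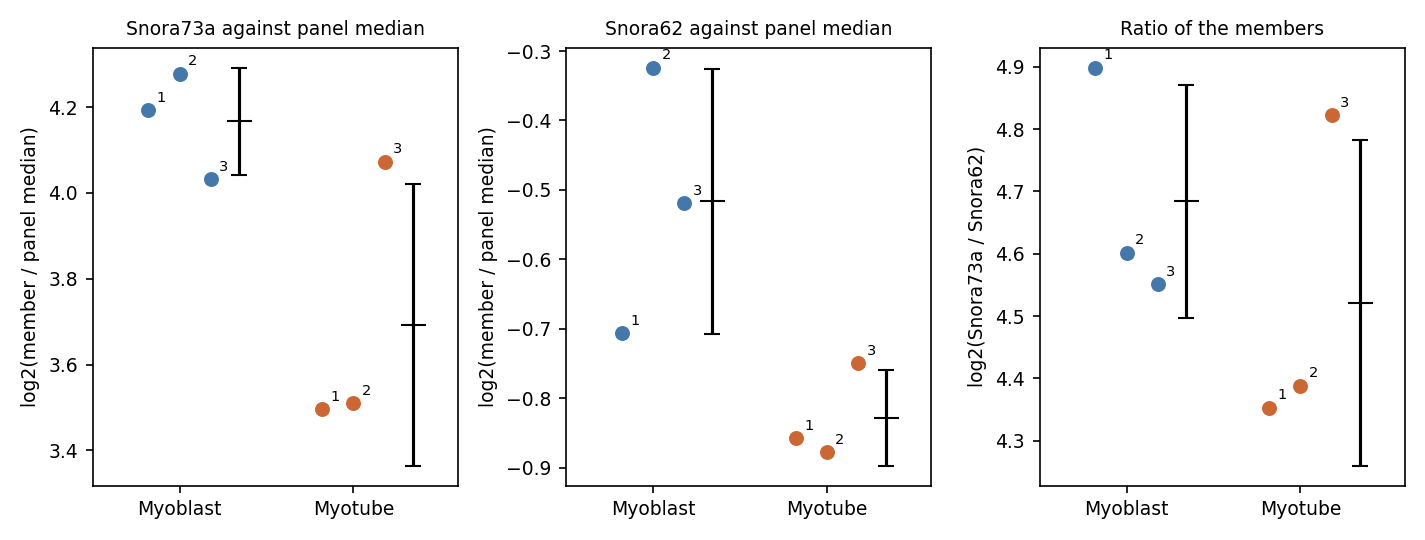
Log2 ratio of Snora73a (left) and of Snora62 (middle) to the median probe of the same sample, and of Snora73a to Snora62 (right); points are samples with their replicate number, the black bar is the mean with its SD (n = 3), and the log2 axes do not start at 0. Myotube sample 3 lies within the myoblast range for Snora73a and for the ratio of both members, and outside it for Snora62.

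On the whole panel, changes ordered from the most negative put Snora73a in place 15 and Snora62 in place 22 of 67. Over all probes the median log2 change came to 0.14, so relative to it Snora73a changed by -0.56 and Snora62 by -0.39. Equal panel totals moved that median to -0.04, equal totals without the 3 highest probes to -0.14, and quantile normalization to 0.03. A factor per sample shifts all log2 values of a sample almost equally, so equal totals can barely alter a change relative to the median. By this construction Snora73a stayed at -0.56 and Snora62 at -0.39 under both kinds of equal totals. Under quantile normalization, relative to the median change, Snora73a was at -0.25 and Snora62 at -0.45. By residual SD within the states, from the least variable, Snora73a was in place 15 and Snora62 in place 31.

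**Figure D4:**
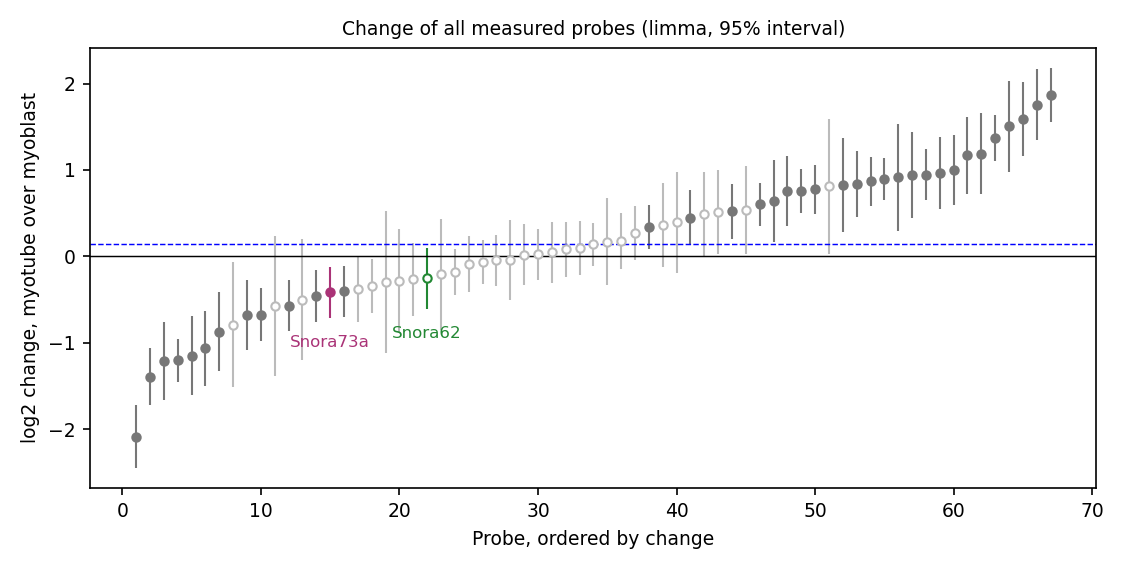
Log2 change in myotubes over myoblasts of all 67 measured probes, in order of change, with 95% intervals from limma; filled points have an adjusted p at or below 0.05, the dashed line is the median change (0.14), Snora73a is in purple and Snora62 in green. Both lie below 0, Snora73a at -0.42 with an interval below 0 and Snora62 at -0.25 with an interval that reaches 0.10.

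By level, Snora73a ranked first of 67 in every myoblast sample and in place 2 in every myotube sample. The probe that took its place, ENSMUST00000082448, has no symbol here and averaged 164029 ± 6467 over the myoblast samples and 167297 ± 19555 over the myotube samples (SD, n = 3 each). Its log2 change was 0.02 ± 0.12 (SE, limma, adjusted p = 0.873). The log2 ratio of Snora73a to this probe was 0.30, 0.31 and 0.42 in myoblast samples 1 to 3 and turned below 0, to -0.13, -0.07 and -0.09, in the myotube samples. This ratio did not set myotube sample 3 apart from the other myotube samples, unlike the ratio to the median. The next probe, Snora16a, lay below Snora73a in all 6 samples.

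Snora62 ranked in places 37 to 40 in myoblasts and 41 to 44 in myotubes. Its neighbours in the order of mean level were Snora75 above, with a myoblast mean of 10153 ± 3175 and a myotube mean of 5902 ± 1968, and ENSMUST00000104066 below, at 4037 ± 353 and 10422 ± 137 (SD, n = 3 each). Snora62 was higher than each of these in 3 of 6 samples. Against Snora75 these came from both states, so its place is not separated from that probe. Against ENSMUST00000104066 they were the myoblast samples (log2 ratio 0.64 to 1.32). In the myotube samples Snora62 lay below that probe (-0.75 to -0.54), so their order differed between the states. Snora75 (log2 change -0.79 ± 0.31 SE) did not pass the test either (limma, adjusted p = 0.064).

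Probes with a symbol were ranked by how alike their log2 values ran with each member over the 6 samples. For Snora73a these were Snora43 (Pearson r = 0.92), Snora52 (0.92) and Snora24 (0.86), which also fell in myotubes, by 0.68, 0.67 and 0.46 on the log2 scale (limma, adjusted p = 0.012, 0.0037 and 0.019). For Snora62 they were Snora44 (0.99), Snora24 (0.87) and Snora43 (0.84). Snora73a and Snora62 correlated with each other at 0.56, in place 16 of the 66 other probes. These values are descriptions over 6 shared samples and include the difference between the states.

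With the mean of each state removed, the picture within states differed between the members. Snora62 ran with Snora44 (r = 0.9995), Snora15 (0.9992) and Snora74a (0.999). All of these were low in myoblast sample 1, by 0.16, 0.66 and 0.53 against the mean of the other myoblast samples on the log2 scale. Without that sample the r values were 0.996, 0.995 and 0.996 over 5 samples. These values lean on myotube sample 3. There Snora62 stood 0.16 below the mean of myotube samples 1 and 2 (log2), and Snora44, Snora15 and Snora74a 0.06, 0.26 and 0.19 below. Snora44 itself did not pass the test between the states (log2 change -0.07 ± 0.11 SE, limma, adjusted p = 0.604), and Snora15 and Snora74a rose by 0.64 and 1.00, so a shared pattern within the states did not go with a shared change between them. The deviations of Snora73a were most like those of Snora7a (r = 0.70), Snora43 (0.64) and Snora78 (0.61), and their r with those of Snora62 was -0.04. Without myotube sample 3 the r with Snora7a was -0.04, while those with Snora43 and Snora78 were 0.94 and 0.84. The r with Snora62 was 0.92 without myotube sample 3 and -0.93 without myoblast sample 1. The r of Snora73a with Snora7a and its r with Snora62 thus also rest on single samples.

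Other RNAs of pre-rRNA cleavage could not be set beside the members. The list held 13 snoRNAs and related RNAs, among them E3 (Snora63), the U17 copy Snora73b, and the box C/D RNAs U3, U8, U14 and U22. Only the 2 members had a measured probe under a symbol, and probes without values were not searched. Of these members 1 passed the test, downward, on a panel where 55.2% of all probes passed and 19.4% passed downward. The 34 measured probes known by a transcript identifier alone may include others. Snora81, whose host Eif4a2 in human also carries E3, had a myoblast mean of 36554 ± 14770 and a myotube mean of 29606 ± 9808 (SD, n = 3 each) and did not pass the test (log2 change -0.29 ± 0.35 SE, limma, adjusted p = 0.515). None of the 4 core H/ACA proteins listed (Dkc1, Nop10, Nhp2 and Gar1) had a measured probe under its symbol.

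**Figure D5:**
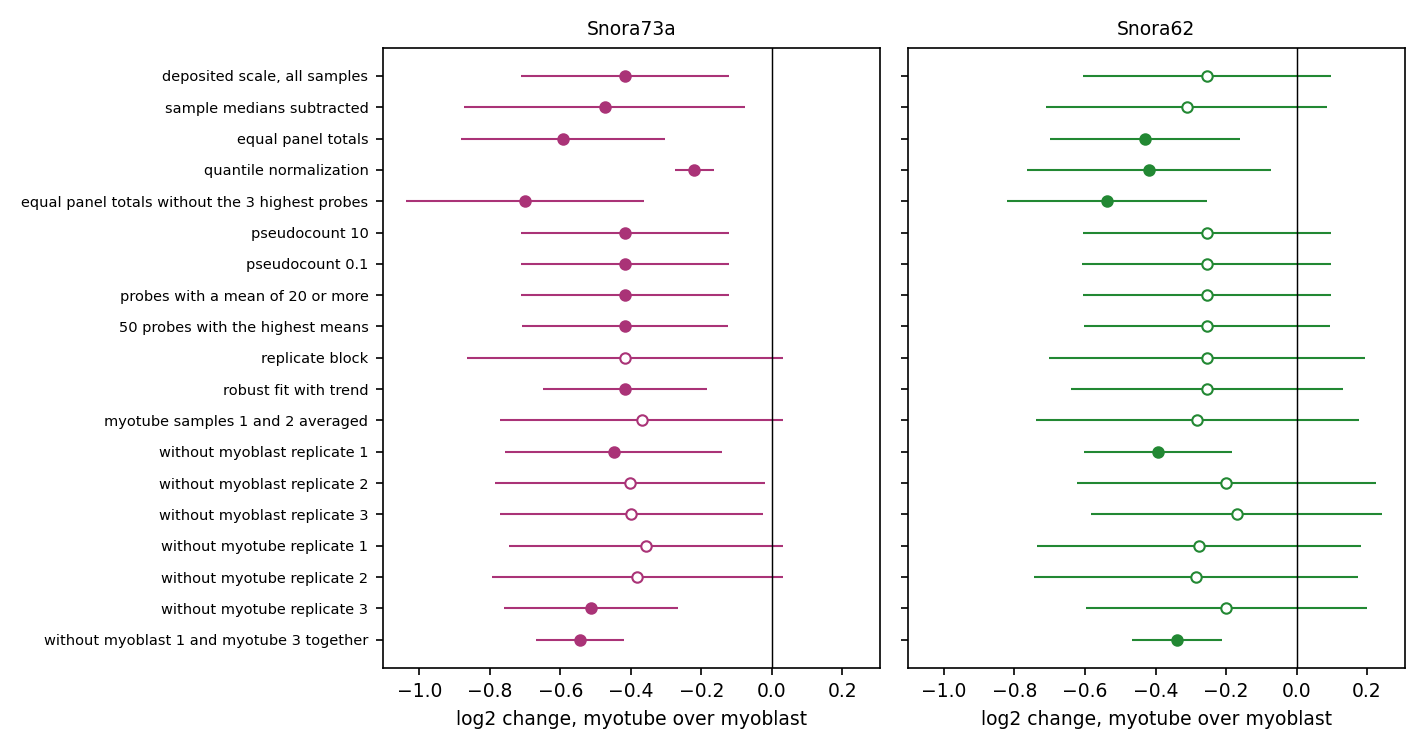
Log2 change in myotubes over myoblasts of Snora73a (left) and Snora62 (right) with its 95% interval under each processing setting and with samples left out; filled points have an adjusted p at or below 0.05 over the probes tested. All values lie below 0 for both snoRNAs, from -0.70 to -0.22 for Snora73a and from -0.54 to -0.17 for Snora62, while the filled points differ between settings.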

How the data were processed

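The value table held a normalized signal per probe, a NanoString probe count that the authors had multiplied by a factor per sample. This unit was inferred from the deposited values, all of which were whole multiples of a step within 0.06 of a count. The sources used here do not state how the factor was derived or whether background was removed. RefSeq accessions, without versions, gave symbols for 34 of 72 probes (33 of 67 with values). Values were analysed as log2(value + 1) in limma 3.58.1 (R 4.3.3; lmFit and eBayes) fitting the state alone (two-sided), and Benjamini-Hochberg adjusted over the 67 probes. Shares and ratios, with 1 value per sample, were compared by exact permutation over the 6 samples, with Python 3.11.15, numpy 2.4.6 and scipy 1.17.1. The fit was also run on simulated data with independent errors and planted changes larger than those of the members. That run does not test calls of the size seen here.

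Members, lists and alternatives were chosen with earlier results of these data known. Named probes were the neighbours of each member in mean level, the 3 with a symbol most alike by Pearson r, and listed pathway or host partners. Whether replicate numbers pair the samples is not known. Same-numbered samples deviated from their state means with r of 0.44, -0.74 and -0.02. With 3 samples per state, these values cannot decide it.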

Additional observations from a re-analysis of the deposited data

How the results depend on the processing

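Snora73a and Snora62 were lower in myotubes under every alternative run. The Snora73a log2 change of -0.42 missed the threshold in the fit with a block for replicate number (-0.42, adjusted p = 0.108) and when myotube samples 1 and 2 were averaged (-0.37). That of Snora62 passed with equal panel totals (-0.43), quantile normalization (-0.42), equal totals without the 3 highest probes (-0.54) and, chosen after seeing the data, without myoblast sample 1 and myotube sample 3 together (-0.34). The block left Snora62 at -0.25 (adjusted p = 0.332) and gave 38 calls against 37. In that fit both members had the same SE (0.23), pooled over the panel, so its p-values do not measure their own spread. Leaving out each sample gave -0.51 to -0.36 for Snora73a, -0.39 to -0.17 for Snora62, and 29 to 42 calls over the panel. For the same omissions the share differences ran from -5.24 to -4.07 and from -0.170 to -0.116 percentage points. The ratios to the median ran from -0.66 to -0.38 and from -0.41 to -0.22, and the ratio of the members from -0.31 to -0.06. Over probes with a symbol alone, the share differences were -8.27 and -0.263 percentage points and the ratios to the median changed by -0.90 and -0.74. Without the highest other probe in the total, the share difference of Snora62 was -0.182. Quantile normalization reversed the change of the ratio of the members, to 0.20. The planned count models were not run, because a check of the low values did not recover whole counts. No probe had a mean under 20, so that filter removed none. Without negative control probes no detection limit could be set.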
